A study of Mus musculus with 8 samples.

Results

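The genes followed here are 31 genes known from pluripotent cells and the early embryo, chosen by symbol for their known roles and all found among 21887 protein-coding mouse genes. Binding of ZFP281 to them was read from chromatin immunoprecipitation sequencing of spheres of mouse mammary cells. The cells came from MMTV-HER2/Neu mice on the FvB background, in which the MMTV promoter drives the HER2/Neu oncogene mainly in mammary epithelium. All groups carried this transgene. Early lesion (EL) spheres were grown from mice of 14 to 18 weeks with no palpable tumour, and primary tumour (PT) spheres from mice of more than 20 weeks that bore tumours, each for 7 days in mammosphere medium without attachment. Each group had 3 ZFP281 libraries, called biological replicates in the labels, and 1 input library, which was not analysed here. Which animals, or how many, contributed to a library is not stated. EL samples carry the tissue label mammary lung and PT samples breast tumor, and both are called breast cancer cells. A binding list does not measure expression, so the labelled cell type could not be checked by marker levels.

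The deposited lists give summit positions, 1 list per ZFP281 library, with a score of the authors that appears from its values to be the −log10 of a q-value. The lists held 7055 to 15770 summits in EL and 2897 to 6033 in PT, and EL replicate 2 had the longest. Read depth is unknown. The main counts are therefore given in the full lists and again in lists cut to the 2897 top-scoring summits of each library. A score percentile is the place of a summit within its own list, with the strongest at 100.

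ZFP281 is a zinc finger factor that binds G-rich DNA. In embryonic stem cells it is known as a partner of the pluripotency network that restrains Nanog together with the NuRD complex, and it is needed for the passage from the naive to the primed state, in which Nodal signalling, Zic2 and the de novo DNA methyltransferases act. The question here was whether the same genes carry ZFP281 summits in mammary spheres, and whether EL and PT spheres differ there.

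Most of the list carried no ZFP281 summit at a gene boundary. Within 1 kb of either end of a gene, 6 of the 31 genes had a summit in any library (Trim28, Sall1, Tbx3, Sall4, Sox2 and Zic2), against 23.1% of all protein-coding genes, and 25 had none. Trim28 alone was bound there in all 6 libraries, a class that holds 4.39% of all genes. None of the 31 was bound in all 3 EL and no PT library or the reverse (1.94% and 0.0457% of all genes). The corepressor Trim28 was the only gene of the list with boundary summits in both groups, while none of Nanog, Pou5f1 and Sox2 had a boundary summit in more than 1 library.

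By library, the genes bound at a boundary numbered 2, 4 and 2 in EL and 2, 1 and 2 in PT, in the order of replicates 1 to 3 used throughout. EL averaged 2.67 ± 1.15 and PT 1.67 ± 0.577 (SD, n = 3 each), and the groups overlapped. Without EL replicate 2 the difference of 1 gene became 0.333. The shares of the list, 6.45%, 12.9% and 6.45% in EL and 6.45%, 3.23% and 6.45% in PT, lay below the share of all protein-coding genes in 5 libraries and above it in PT replicate 1. Among all genes, EL libraries had 13.5%, 20.8% and 11.7% bound, PT libraries 5.76%, 7.53% and 11.1%.

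Counted in the gene body or within 20 kb, 15 of the 31 genes had a summit in any library, 48.4% of the list against 51.4% of all genes. The genes reached numbered 11, 13 and 7 in EL and 5, 6 and 8 in PT, with means of 10.3 ± 3.06 and 6.33 ± 1.53 (SD, n = 3 each). The highest PT count lay above the lowest EL count. Nanog, Dnmt3a and Trim28 were reached in all 6 libraries (9.68% of the list, 13.0% of all genes), Dnmt3l and Tbx3 in all 3 EL and no PT library (6.45%, against 5.19%), and none in all 3 PT and no EL library (0.206% of all genes). The median number of libraries that reached a gene was 0 for the list and 1 for all genes. Genes of the list are shorter, with a median of 7.95 kb against 17.2 kb for all protein-coding genes, which narrows this window. Within the list the median was 7.145 kb for genes with a summit in reach and 9.25 kb for those with none. The part of length in the counts was not tested.

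**Figure D1:**
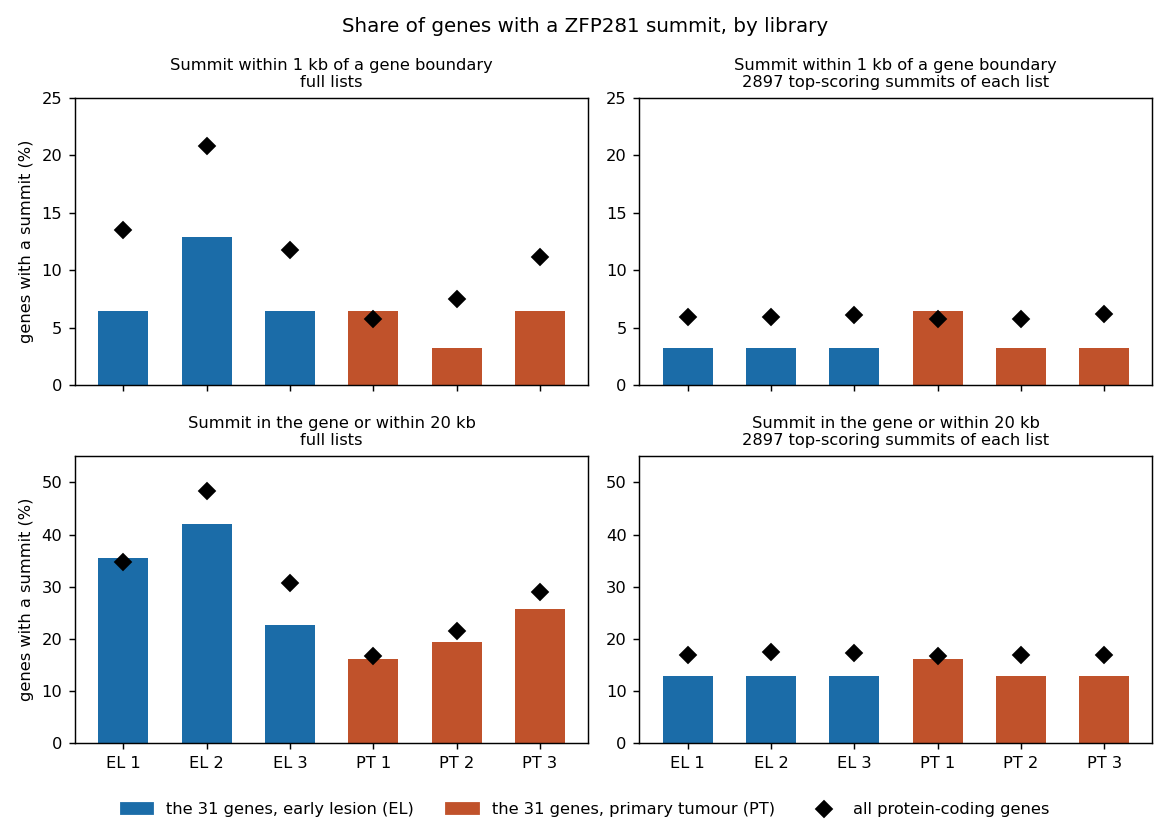
Share of genes with a ZFP281 summit in each library, in percent: bars show the 31 genes (blue, EL; orange, PT) and black diamonds all protein-coding genes, for both windows and for full and equal list lengths. In the wide window the bars span 16.1% to 41.9% in full lists, and at equal lengths they lie between 12.9% and 16.1%.

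At equal list lengths the counts of EL and PT overlapped. The wide window then reached 4 genes in every EL library and 5, 4 and 4 genes in PT replicates 1, 2 and 3, and the boundary window 1 gene in every EL library and 2, 1 and 1 in PT. In any library 6 genes remained in the wide window, 19.4% of the list against 27.9% of all genes, and 2 (Trim28 and Sox2) at a boundary, 6.45% against 10%. The genes in all 6 libraries were the same, Nanog, Dnmt3a and Trim28 in the wide window (8.76% of all genes) and Trim28 at a boundary (2.99%). Utf1 was then reached in the 3 EL libraries alone (1.64% of all genes) and Sall4 in the 3 PT libraries alone (1.42%). At a boundary neither one-sided class held a gene of the list (0.379% and 0.338% of all genes). The wide window held 5, 5 and 4 summits in EL and 5, 4 and 5 in PT at equal lengths, after 17, 27 and 11 in EL and 5, 7 and 11 in PT in full lists. Per 1000 summits of the full lists, the wide window held 1.75 ± 0.213 in EL and 1.76 ± 0.0533 in PT, and the boundary window 0.257 ± 0.0254 in EL and 0.479 ± 0.222 in PT (SD, n = 3 each), the latter from 1 to 4 summits per library.

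No gene can pass a test of 3 against 3 libraries. The exact permutation test of the highest percentile per gene, two-sided, has a smallest p of 0.1, and after Benjamini-Hochberg adjustment 0 of 21887 genes (0%) passed 0.05, with 0 below 0.05 before adjustment. The smallest p was reached at a boundary by Trim28 (5.53% of all genes reached it) and in the wide window by Dnmt3l, Tbx3, Utf1 and Trim28 (16.9%). At equal list lengths it was reached by no gene of the list at a boundary (2.13% of all genes) and by Sall4 and Utf1 in the wide window (7.86%). The lowest adjusted p of this exact permutation test was 0.592, for the wide window in full lists, and 1 in the other 3 settings.

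**Figure D2:**
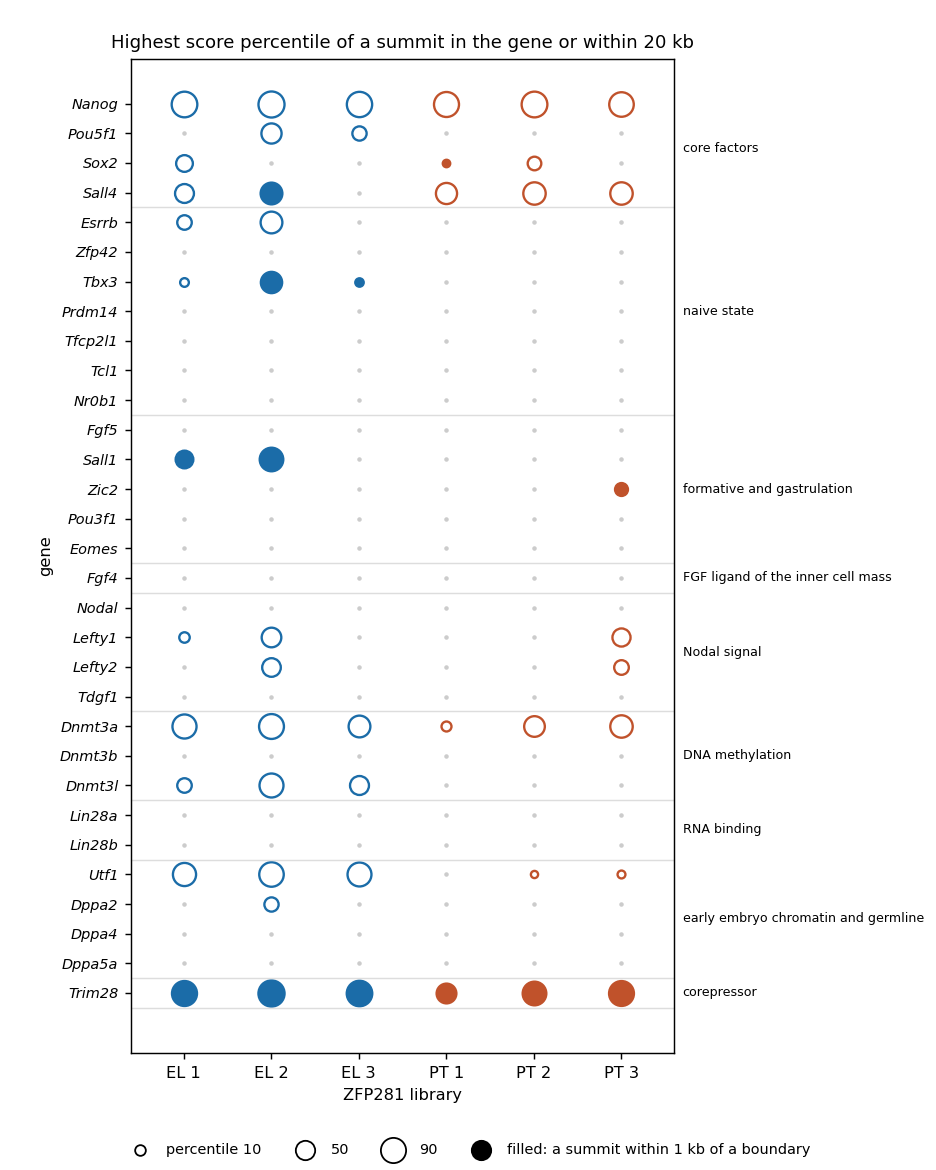
The 31 genes by role (rows) and the 6 libraries (columns). Circle area gives the highest score percentile of a summit in the gene or within 20 kb, filled circles mark genes that also have a summit within 1 kb of a boundary, and grey dots mark no summit. Nanog, Dnmt3a and Trim28 have circles in all 6 columns, and 16 rows have none.

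Among the core factors, Nanog, the homeobox factor that stabilises the naive state, was bound upstream in all libraries. A region on chr6:122702527-122702669 (mm10), 143 bp wide and 4820 to 4962 bp upstream of the first Nanog start, held a summit in every library. Its score was 36.1, 69.4 and 28.7 in EL against 27.1, 34.8 and 24.6 in PT. It ranked 584, 555 and 661 from the top in EL and 345, 241 and 914 in PT, among the 2897 top summits of every list, and the ranks of the groups overlapped. The exact permutation p for Nanog in the wide window was 0.3 in full lists and 0.8 at equal lengths (adjusted p = 1 in both). An upstream enhancer of Nanog is known from embryonic stem cells, and the next protein-coding gene, Slc2a3, lay 25140 bp away. An annotated gene that is not protein-coding, Gm10224, lay nearer to the region than Nanog, at 3530 bp. A weaker region at chr6:122689775-122689784, 17705 to 17714 bp upstream, had summits in EL replicates 1 and 2 only, at percentiles of 40.4 and 62.0.

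At the Nanog start itself there was no summit within 1 kb in any library. The 250 bases before the first RefSeq start, chr6:122707239-122707488 on the plus strand (GRCm38.p6), are shown as the promoter that the summits left free. The motifs searched on both strands were GGGGGAGGG, the core of the G-rich element known for ZFP281 in embryonic stem cells, and the shorter GGGAGGGG, which overlaps it. Capitals here and below mark a match to either, and this window has none:
Nanog: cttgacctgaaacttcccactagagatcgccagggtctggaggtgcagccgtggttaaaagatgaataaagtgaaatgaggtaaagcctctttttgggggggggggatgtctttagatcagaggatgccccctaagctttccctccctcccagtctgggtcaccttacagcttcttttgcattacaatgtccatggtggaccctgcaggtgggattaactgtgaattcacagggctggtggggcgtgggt

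Pou5f1, which encodes OCT4, had a summit 3665 and 3618 bp upstream of its first start in EL replicates 2 and 3, at percentiles of 54.9 and 23.7, and none in the other 4 libraries. Its nearest PT summit lay 46.7 kb away. The EL summits lie inside the annotated gene Gm32362. Sox2, the partner of OCT4 on DNA, had summits inside the gene 1085 bp after the start in EL replicate 1, 739 bp in PT replicate 1 and 1065 bp in PT replicate 2. Only the PT replicate 1 summit lay within 1 kb, with the others just outside that limit, and it ranked 2869 of 2897. All 3 lie within the noncoding gene Sox2ot as well.

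Sall4, a zinc finger partner of OCT4, had a boundary summit only in EL replicate 2, 790 bp inside the upper gene boundary, at percentile 7.15. The annotated gene Gm14261 overlaps this summit. A region at chr2:168733938-168734088, 14244 to 14394 bp below the lower boundary, had a summit in all 3 PT libraries and no EL library, with scores of 12.4, 14.2 and 13.7 and ranks of 1137, 1237 and 1826. That region lies inside the neighbouring gene Atp9a, so its tie to Sall4 is one of distance only. Closer to Sall4, but still in Atp9a, summits at 6784 and 6754 bp were found in EL replicates 1 and 2 and at 6995 bp in PT replicate 3. EL replicate 2 had a further summit 13073 bp above the gene.

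Of 7 naive-state genes, Zfp42, Tfcp2l1, Prdm14, Nr0b1 and Tcl1 had no summit in the wide window in any library, where 51.4% of all genes had one. Tcl1, a coactivator of AKT, was the nearest to one, at 27.8 kb, and Nr0b1, an orphan nuclear receptor on the X chromosome, the farthest, at 4459 kb. Esrrb, an orphan nuclear receptor that activates naive genes, had a summit in EL replicate 1, 148 bp upstream of its inner start at 86421644 on chromosome 12 (percentile 24.9), and another deep in the gene in EL replicate 2 (percentile 65.0). These do not coincide. Tbx3, a T-box factor that also acts in mammary gland development, had summits in the EL libraries alone. Among them, summits lay 112 and 82 bp inside its lower boundary in EL replicates 2 and 3, at percentiles of 34.6 and 3.39, and 1669 and 1848 bp inside it in EL replicates 1 and 2, at 4.13 and 62.0, and 2 more, in EL replicates 1 and 2, were at 4.13 and 11.1. No Tbx3 summit was among the top 2897, and the nearest PT summit lay 787 kb away. The annotated gene Tbx3os1 overlaps the region at the lower boundary. Tbx3 reached the smallest p in full lists (exact permutation p = 0.1, adjusted p = 0.592), as did 16.9% of all genes in the wide window, and was lost at equal lengths.

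Of 5 formative and gastrulation genes, 2 (Sall1 and Zic2) had a summit in the wide window in any library, where 51.4% of all genes had one. Pou3f1, Fgf5 and Eomes had none within 20 kb, with the nearest at 41.0, 86.6 and 25.5 kb. Zic2, which ZFP281 is known to work with in primed cells, had summits in PT replicate 3 alone, 487 bp below and 751 bp above its lower boundary, both at percentile 18.0. The summit below the boundary lies inside the annotated gene 2610035F20Rik. Sall1, a zinc finger gene of organ formation, had 3 regions, each in EL replicates 1 and 2 and in no other library. The boundary region, chr8:89044238-89044263, lay 76 and 101 bp upstream of the first start at percentiles of 40.4 and 16.1. The region at chr8:89042964-89043098 lay 236 and 102 bp upstream of an inner start at 18.5 and 77.2, and the last lay 5878 and 5872 bp beyond the lower boundary at 32.6 and 77.7. The annotated gene Gm3134 overlaps the boundary region and the region at the inner start.

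The inner Sall1 window, chr8:89042863-89043112 on the minus strand, is shown because both summits of its region fall in it. It holds 3 matches to GGGGGAGGG and 2 to GGGAGGGG, some overlapping, and its GC content is 78.4%:
Sall1: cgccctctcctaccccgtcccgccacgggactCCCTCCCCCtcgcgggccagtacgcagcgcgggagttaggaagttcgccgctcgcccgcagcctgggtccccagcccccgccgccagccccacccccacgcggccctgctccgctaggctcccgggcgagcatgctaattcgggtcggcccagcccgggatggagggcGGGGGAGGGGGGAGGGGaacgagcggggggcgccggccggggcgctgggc

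Of 4 Nodal signal genes, 2 (Lefty1 and Lefty2) were reached in the wide window, where 51.4% of all genes were. Nodal, the TGF-beta family ligand of the epiblast, had its nearest summit at 23.0 kb, and Tdgf1, the Nodal coreceptor Cripto, at 48.8 kb. The Nodal inhibitors Lefty1 and Lefty2 had scattered summits. At Lefty2, 4265 and 4329 bp below the lower boundary, EL replicate 2 and PT replicate 3 shared a region at percentiles of 45.7 and 25.4. Lefty1 had an intragenic summit in EL replicate 2 (percentile 51.5), while those counted in EL replicate 1 and PT replicate 3 lay inside the neighbour Tmem63a. The annotated gene Gm39715 overlaps the intragenic summit. Fgf4, the FGF ligand of the inner cell mass, had its nearest summit at 73.8 kb.

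The DNA methyltransferase genes split by member. Dnmt3b, the enzyme that dominates in the epiblast, had no summit within 20 kb in any library, with the nearest at 48.4 kb in EL and 53.7 kb in PT. Dnmt3a, the other de novo enzyme, was reached in all 6 libraries, and Dnmt3l, their cofactor without catalytic activity, in the EL libraries alone. None of these summits lay within 1 kb of an outer gene boundary. Those found in several libraries lay within 1 kb of inner starts listed by RefSeq, which the boundary rule does not see.

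Dnmt3a had summits at an inner start at 3891744 on chromosome 12. A short form of the enzyme that is abundant in embryonic stem and germ cells is known to come from an internal promoter of this gene. Summits of the region chr12:3891376-3891669 lay 75, 93 and 205 bp upstream of that start in EL, and 108, 368 and 210 bp upstream of it in PT. EL scores were 19.4, 25.8 and 11.8, and PT scores 4.07, 4.59 and 12.6, so that PT replicate 3 lay within the EL range and PT replicates 1 and 2 below it. The ranks, 1582, 2522 and 2430 in EL and 2661, 3517 and 1990 in PT, also overlapped. The noncoding gene Gm31623 overlaps this region.

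The 250 bases before that start, chr12:3891494-3891743 on the plus strand, are shown because 5 of the 6 summits fall in them, all but that of PT replicate 2. The GC content is 73.6%, and 33 bases belong to 3 matches each of GGGGGAGGG and GGGAGGGG, read here as their complements:
Dnmt3a: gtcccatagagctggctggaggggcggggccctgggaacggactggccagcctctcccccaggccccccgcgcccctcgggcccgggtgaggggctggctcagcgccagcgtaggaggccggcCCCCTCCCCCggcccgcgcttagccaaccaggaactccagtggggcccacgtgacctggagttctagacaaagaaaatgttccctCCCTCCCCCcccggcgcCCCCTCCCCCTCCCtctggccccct

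Near the pair of upstream Dnmt3a starts, at 3806980 and 3807160, the region chr12:3807558-3807846 had summits in 3 EL libraries and in PT replicates 2 and 3. They lay 686, 501 and 398 bp downstream of the nearer start in EL, with scores of 17.0, 30.9 and 8.62, and 645 and 481 bp downstream in PT, with scores of 10.9 and 13.7. PT replicate 1, the shortest list, had none there. Weaker summits, each in 1 library, lay elsewhere in Dnmt3a or below it in EL replicates 2 and 3. Neither upstream window contains either motif. The exact permutation p for Dnmt3a in the wide window was 0.2 in full lists (adjusted p = 0.969) and 0.9 at equal lengths (adjusted p = 1).

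Dnmt3l had summits in all 3 EL libraries and no PT library, at chr10:78054939-78055052. They lay 396, 349 and 283 bp upstream of its innermost RefSeq start, with scores of 5.55, 22.1 and 8.28, percentiles of 24.9, 80.7 and 47.5 and ranks of 6307, 3006 and 3662. None was among the top 2897 summits of its list, so the EL-only pattern (exact permutation p = 0.1, adjusted p = 0.592) was not present at equal lengths. In the wide window of full lists, 16.9% of all genes reached this smallest p of the exact permutation test. The nearest PT summit lay 289 kb from the gene. The 250 bases before that start, chr10:78055085-78055334 on the plus strand, begin just downstream of the summits, and they are shown as the promoter nearest to them, with 1 match to GGGAGGGG:
Dnmt3l: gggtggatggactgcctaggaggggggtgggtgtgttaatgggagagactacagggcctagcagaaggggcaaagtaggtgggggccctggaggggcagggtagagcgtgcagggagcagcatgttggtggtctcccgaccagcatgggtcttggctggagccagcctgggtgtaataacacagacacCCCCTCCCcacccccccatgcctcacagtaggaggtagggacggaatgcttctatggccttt

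**Figure D3:**
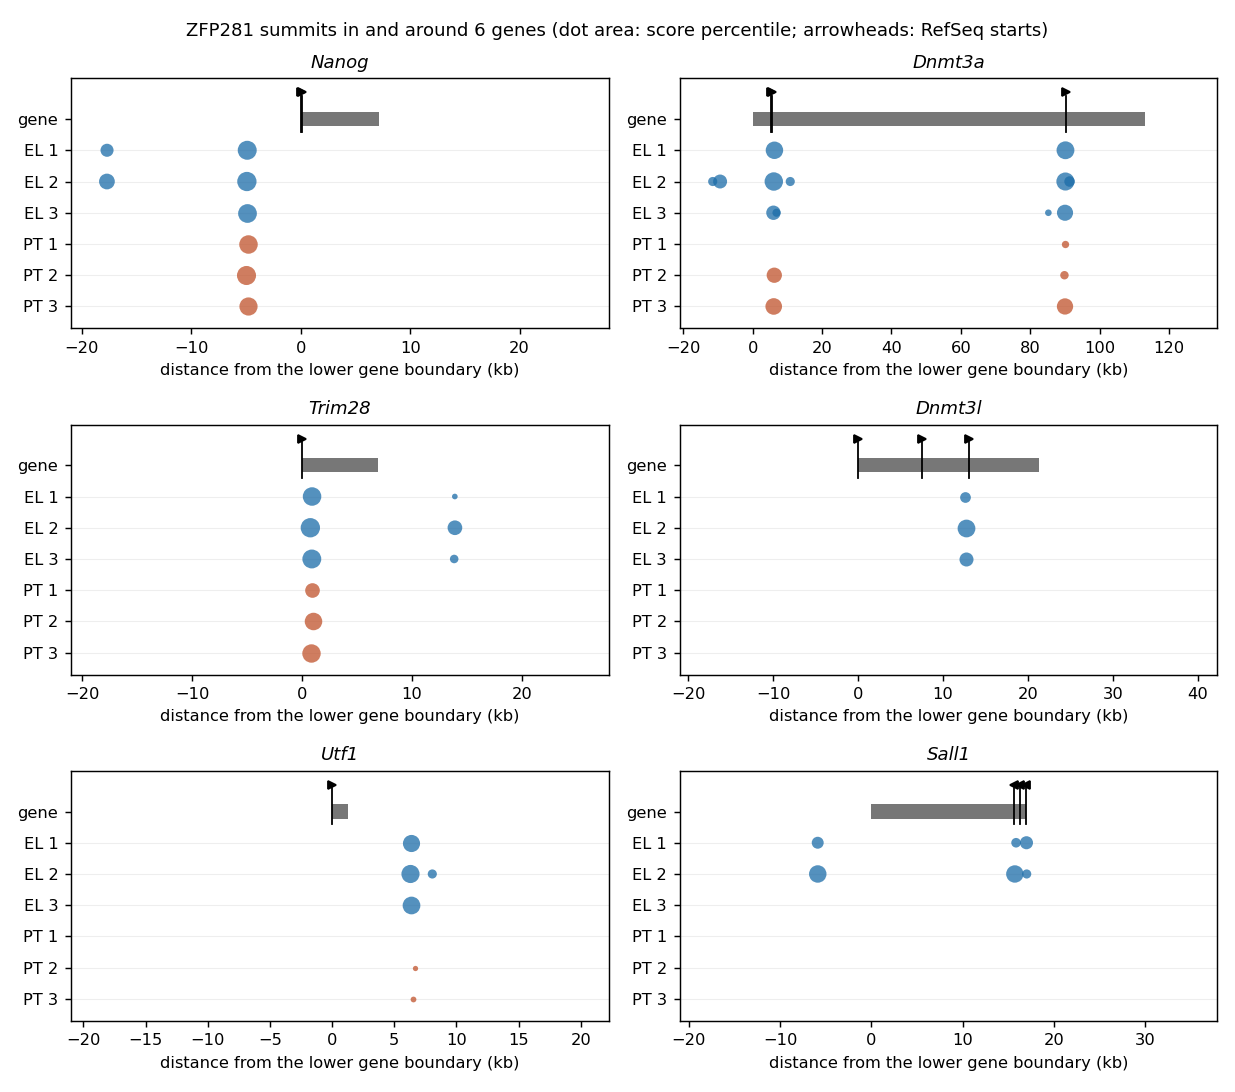
Positions of ZFP281 summits in and around 6 genes, as distance from the lower gene boundary in kb, 1 row per library (blue, EL; orange, PT). Dot area gives the score percentile, the grey bar the gene and arrowheads the starts listed by RefSeq in the direction of transcription. The Nanog summits line up upstream of the gene in all 6 libraries, and the Dnmt3l and Sall1 summits are in EL rows only.

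Counted over RefSeq starts instead of outer boundaries, 21 of the 31 genes had 30 starts. Within 1 kb of a start, a summit was found in all 6 libraries at 2 of the 30, the Trim28 start and the inner Dnmt3a start (6.67%, against 4.88% of 21263 starts of protein-coding genes). In all 3 EL and no PT library was 1 start, that of Dnmt3l (3.33%, against 1.80%), and in all 3 PT and no EL library none (0.0376% of all starts). In any library 10 starts had a summit (33.3%, against 23.5%), and they belong to 6 genes, Dnmt3a, Dnmt3l, Esrrb, Sall1, Sox2 and Trim28. Neighbouring starts of Dnmt3a and of Sall1 share summits and were counted separately, so shares of starts are not shares of genes. At equal list lengths 5 starts of 3 genes (Dnmt3a, Sox2 and Trim28) had a summit in any library (16.7%, against 10.3%). The Trim28 start alone was then bound in all 6 libraries (3.33%, against 3.47%), and no start of the list was bound in 1 whole group alone (0.334% of all starts for EL and 0.268% for PT). The motif GGGGGAGGG was in 5 of the 30 windows of 300 bases (16.7%), in Lin28a, Dnmt3a, Dnmt3l and Sall1, against 5.16% of all 32851 windows. Those 32851 windows were not limited to protein-coding genes, as the starts above were, so they are an unlike background for this list. GGGAGGGG was in 9 (30%), against 12.2%. The median GC content was 61.2% in the 30 windows and 52.7% in all windows, and its part in these shares was not tested. The Lin28a window holds both motifs, with the nearest summit 50801 bp from its start and 35.3 kb from the gene.

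The RNA-binding genes Lin28a and Lin28b, which block maturation of let-7 microRNAs, had their nearest summits at 35.3 and 87.5 kb. Among the early embryo chromatin genes, Dppa4 and Dppa5a had none within 20 kb (37.9 and 113 kb), and Dppa2 had 1, in EL replicate 2, 12653 bp above its upper boundary at percentile 23.6.

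Utf1, a chromatin-bound factor of embryonic stem cells, had summits that ranked higher in EL. Those 5119, 5055 and 5089 bp above its upper boundary in EL had scores of 15.8, 27.0 and 18.6, while those in PT replicates 2 and 3, at 5437 and 5235 bp, had 1.92 and 2.08, and PT replicate 1 had none. They ranked 2177, 2435 and 1395 in EL, but 4012 of 4030 and 5941 of 6033 in PT. The groups did not overlap in full or in equal lists (exact permutation p = 0.1 in both, adjusted p = 0.592 and 1). Of all genes, 16.9% in full and 7.86% in equal lists reached this smallest p of the exact permutation test. The sites lie inside the noncoding gene Gm16201, and Utf1 is the nearest protein-coding gene, with Kndc1 next at 8627 bp or more.

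Trim28, also known as KAP1, is the corepressor that KRAB zinc finger proteins recruit to silence retroelements, and it is expressed in most cell types. Its region, chr7:13024911-13025129, 219 bp wide, lay inside the gene 914, 759 and 892 bp downstream of the start in EL and 887, 977 and 808 bp in PT. EL scores there were 26.8, 74.5 and 31.3, and PT scores 10.4, 17.6 and 27.4. With percentiles of 88.3, 97.0 and 92.3 against 52.5, 78.4 and 87.3, the EL libraries stood above all PT libraries in full lists (exact permutation p = 0.1, adjusted p = 1). At a boundary 5.53% of all genes reached this smallest p of the exact permutation test. The ranks of 1006, 471 and 551 in EL and 1394, 885 and 767 in PT overlapped, and at equal lengths the exact permutation p was 0.3. The next protein-coding gene, Gm31649, lay 477, 322 and 455 bp from the summits in EL and 450, 540 and 371 bp in PT. In every library it was nearer than the Trim28 start, so the boundary count does not tell the 2 genes apart. The distances of 914 and 977 bp from the Trim28 start stand close to the limit of 1 kb. A further region 6953 to 7020 bp above Trim28, in EL alone, lies inside Ube2m, at percentiles of 1.69, 52.7 and 13.1.

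The promoter of Trim28, chr7:13023902-13024151 on the plus strand, is shown because it is the only gene of the list with a boundary summit in all 6 libraries. It contains neither motif, and no summit falls in it:
Trim28: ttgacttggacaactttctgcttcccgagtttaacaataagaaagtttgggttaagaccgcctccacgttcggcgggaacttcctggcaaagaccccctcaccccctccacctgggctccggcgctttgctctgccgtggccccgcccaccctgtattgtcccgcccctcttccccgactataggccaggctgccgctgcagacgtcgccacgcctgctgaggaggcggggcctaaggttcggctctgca

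**Figure D4:**
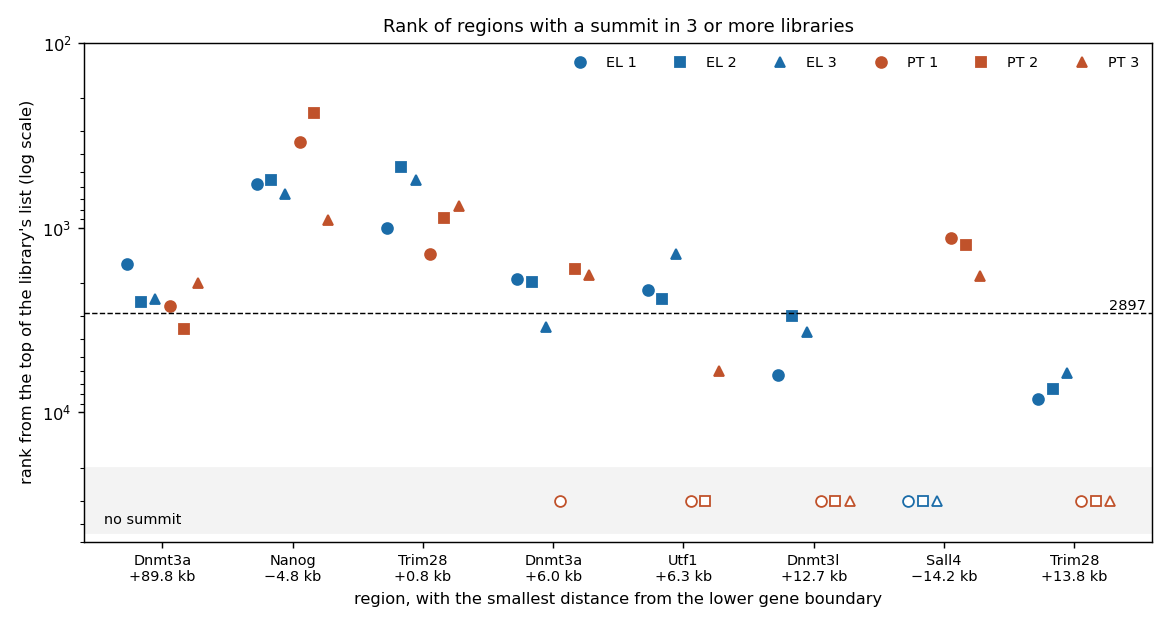
Rank of each region with a summit in 3 or more libraries, counted from the top of the library's own list on a log scale (blue, EL; orange, PT; symbols, replicates). The dashed line is the length of the shortest list, 2897, and open symbols in the grey band mark no summit in that region; the PT replicate 2 summit at Utf1, rank 4012, lies 202 bp beyond the region and counts as none here. Nanog ranks between 241 and 914 in all 6 libraries, and the Sall4 region is open in all EL libraries.

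Merging summits at most 200 bp apart gave 40 regions in reach of the 31 genes. Of these, 3 were found in all 6 libraries (at Nanog, inside Dnmt3a and at Trim28; 7.5%, against 8.14% of all 19317 regions), and 22 in 1 library alone (55%, against 47.0%). EL libraries alone held 26 regions (65%, against 63.3% of all regions), PT libraries alone 7 (17.5%, against 8.81%) and both groups 7 (17.5%, against 27.9%). At equal list lengths 7 regions were left, 1 in EL alone, 2 in PT alone and 4 in both groups, where all 6114 regions divided into 28.7%, 33.1% and 38.2%.

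Other genes of the pluripotency network were read at their boundaries from 5 context lists. Of 11 LIF and naive genes, 5, 8 and 4 were bound in EL and 2, 3 and 4 in PT, with Stat3, the effector of LIF, and its feedback inhibitor Socs3 in all 6 libraries, Klf4 in 3 EL and 2 PT, and Klf2 in 3 EL and no PT. Of 11 formative and primed genes, 3, 4 and 4 were bound in EL and 0, 1 and 2 in PT, among them the ERK phosphatase gene Dusp6 (2 EL, 2 PT), Etv4 (3 EL, 1 PT), and Tcf7l1 and Etv5 (3 EL, no PT). For 12 further Nodal pathway genes the counts were 5, 5 and 3 against 1, 2 and 4, with the activin receptor genes Acvr2b in all 6 libraries, Acvr2a in 3 EL and 2 PT and Acvr1b in 3 EL and 1 PT, and Smad3 in 2 EL and 1 PT. Of 9 lineage genes only Gata6 was bound, in 3 EL libraries and 1 PT library. Of 12 ZFP281 partner and DNA methylation genes, 4, 3 and 3 were bound in EL and 2, 3 and 2 in PT, with the repressor gene Rest in all 6, Uhrf1 in 3 EL and 2 PT, Chd4 of NuRD in 2 EL and 1 PT, and Nacc1 in 2 EL and no PT. At equal list lengths the 5 lists, in this order, held 4, 3 and 3 bound genes in EL against 2, 3 and 3 in PT, 1, 2 and 3 against none, 2, 2 and 2 against 1, 2 and 3, 0, 0 and 1 against none, and 2, 1 and 3 against 2, 3 and 1. In any library, the full lists gave 9 of 11, 4 of 11, 5 of 12, 1 of 9 and 5 of 12 bound genes, against 23.1% of all genes. Of all genes, 4.39% were bound at a boundary in all 6 libraries, 1.94% in all EL and no PT libraries, 5.76% to 20.8% per library in full lists and 5.75% to 6.21% at equal lengths.

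Among the cell type marker lists, binding at fibroblast genes differed in count between the groups. Of 5 fibroblast marker genes, 4, 4 and 4 (Pdgfra, Col1a1, Dcn and Col1a2, with Lum at 0) were bound at a boundary in EL and 0, 0 and 1 in PT, and at equal lengths 1, 4 and 4 against 0, 0 and 0. Of 6 mammary epithelial marker genes, 1, 1 and 1 were bound in EL and 1, 1 and 2 in PT, and at equal lengths 0, 0 and 0 against 1, 1 and 2, with Cdh1 bound in all 6 full lists. No leukocyte or endothelial marker gene (3 each) was bound in any library. The share of all genes bound per library, for comparison, was 5.76% to 20.8% in full lists. The part of other cell types in the summits found in EL alone at Dnmt3l, Tbx3 and Sall1, and in the higher EL ranks at Utf1, was not tested.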

How the data were processed

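Summits of 6 ZFP281 libraries were analysed, made from 150 bp paired-end sequencing per the labels. The submitters' processing notes name Bowtie2 2.3.4.3, Picard and the genome mm10. How peaks were called, and whether inputs entered, was not given in the sources used here. Each library has its own list, and the score the authors deposited in it was taken from its values to be the −log10 of a q-value, no unit being named. All summits on the autosomes (1 to 19), X and Y entered, with 1-based positions and no further filter. The RNA extraction kit named in the labels is not a step of this assay. Genes came from RefSeq (GRCm38.p6, without strand) and starts and promoters from a RefSeq table that covers 21 of the 31 genes. Equal lists took the 2897 best ranks of each library, so they compare ranks and not equal scores.

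The genes, context lists and marker lists were chosen with earlier results of these data known, and no p was computed over the list. All 31 genes are accounted for. Values per library were set for genes with a boundary summit in at least 3 libraries or a wide-window summit in all 3 of a group, other genes being given as far as they had summits, and up to 4 genes per context list were named by number of libraries and then percentile. Printed promoters were set for Nanog and for any gene with boundary summits in each of the 6 libraries or in 1 whole group alone. Those of Dnmt3a, Dnmt3l and Sall1, the count over RefSeq starts and the region counts at equal lengths were chosen after their values were seen. The exact permutation test, two-sided with 20 relabellings, ran over 21887 genes. No pair of lists shared more than 81 identical positions. The boundary classes and the exact permutation test were tested on simulated summits planted near lower gene boundaries. The other steps were not tested on simulated data. Python 3.11.15, numpy 2.4.6, pandas 2.3.3 and matplotlib 3.10.9 were used. Alternatives were equal list lengths, score limits of 5 and 10, other windows, nearest gene only, each library left out, other merging distances, all annotated genes and a replicate block.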

Additional observations from a re-analysis of the deposited data

How the results depend on the processing

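The number of genes bound at a boundary, EL minus PT, was 1 and became -0.333 at equal list lengths, 0 with a score of at least 10 and 2.67 with a window of 5 kb. The number reached in the wide window, 4, became -0.333 at equal list lengths, and the number of summits there, 10.7, became 0 at equal list lengths, 3 with a score of at least 10 and 21 with a window of 50 kb. Leaving out each library in turn gave ranges of 0.333 to 1.33, 2.67 to 5.67 and 6.33 to 14.3, the lowest of each without EL replicate 2. Trim28 as the 1 gene at a boundary in all 6 libraries gave way to 0 genes with a window of 500 bp and was joined by Nanog (2 genes) with 5 kb. The number in all 3 EL and no PT library, 0, was 0 to 1 with a library left out (Tbx3 without EL replicate 1, Sall1 without EL replicate 3) and 1 (Tbx3) with 5 kb. Genes with no summit in the wide window numbered 16, then 25 at equal list lengths and 8 with 50 kb. Over all annotated genes the background shares were 2.47%, 1.19% and 13.5% in place of 4.39%, 1.94% and 23.1%. At equal list lengths the starts with a summit in any library went from 10 to 5, those in all 6 libraries from 2 to 1 and the regions in reach from 40 to 7. The shorter motif moved the windows with a match from 5 to 9. Shorter lists and narrower windows hold fewer summits by construction, and no other cause was tested. Whether replicate numbers pair the libraries is not stated. For 5047 bound genes, the gene's group mean was subtracted from its highest boundary percentile in each library. Correlations of these deviations between EL and PT libraries were -0.0526, -0.000336 and -0.0250 for the same number and -0.0312 to 0.0598 for the others. With the group means removed, they do not measure how alike binding is in EL and PT. Genes without a summit in a library enter as 0, so these values cannot decide whether a pairing exists. With the replicate block the differences were again 1, 4 and 10.7, and 0 genes passed the exact permutation test, whose smallest p is then 0.25. Read depth is unknown, so a missing summit does not show absent binding.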

Other observations

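Over all promoter windows of the RefSeq table, the motif GGGGGAGGG was in 31% of the 1221 windows with a summit within 1 kb of the start in all 6 libraries and in 2.72% of the 26809 windows with none. The median GC content of these windows was 66.7% and 50.7%, and its part in the shares was not tested. Among the 31 genes the motif was in 3 of 10 windows with a summit within 1 kb in any library and in 2 of 20 without, with a median GC content of 68.2% and 58.2%. The 3 windows belong to 2 genes, Dnmt3a and Sall1, and Sall1 was bound in 2 EL libraries and no PT library. All 30 windows belong to 21 genes, so they are not independent.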
